A study of Homo sapiens with 12 samples.

Results

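The 8 intermediate filament genes GFAP, VIM, NES, SYNM, NEFL, NEFM, KRT8 and KRT18 were looked up by gene symbol in a table of 11178 genes, and 6 of them had a row. All 6 passed the filter on low values, which kept 11128 genes. NEFM and KRT8 matched no row by symbol or by gene identifier and were not analysed here. The RNA came from the human glioblastoma line U251-APP, which stably expresses an APP gene (amyloid precursor protein) carrying the K670N and M671L mutations. CTCF-A KO cells lack the binding site called CTCF-A of the insulator protein CTCF, and CTCF-B KO cells lack the site called CTCF-B. Each site was removed with Cas9 and guide RNAs on either side of it, and single-cell clones were grown out. WT cells are wild type at both sites. The mutant APP is thus present in all 3 groups, and the labels give CRISPR/Cas9 editing as the treatment of WT cells too. The labels do not say whether the 4 libraries of a group are separate clones or cultures, nor whether WT cells were cloned. P-values therefore set group differences only against the scatter of these libraries, which may be technical variation. A property of a knockout group may be that of a clone.

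Intermediate filaments are rope-like polymers that give a cell its mechanical strength and hold organelles in place. Astrocytes and gliomas build theirs from GFAP and vimentin, to which nestin and synemin join as large partners. Neurofilament light chain, the product of NEFL, is best known from axons, and keratins 8 and 18 pair with each other in simple epithelia. GFAP is the classic marker of mature and reactive astrocytes, while vimentin and nestin also mark immature glia and glioma cells.

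The loss of GFAP mRNA was shared by both knockouts, and the other filament genes did not follow it in the same way. In CTCF-A KO cells GFAP and KRT18 fell, NEFL and SYNM rose, and VIM and NES did not pass the test (limma, adjusted p under 0.05), which 62.9% of all genes tested passed. In CTCF-B KO cells all 6 measured genes fell, where 39.4% of all genes passed the test and 20.6% were lower. GFAP and NEFL fell by more than 2-fold there (1.42% of all genes changed that much in either direction) and VIM, NES, SYNM and KRT18 by less.

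Values are normalised expression on the log2 scale, as deposited, so a difference of 1 is a factor of 2. The libraries were not equally even. The median absolute difference between replicates over all genes ran from 0.08 to 0.29 log2 in CTCF-A KO cells, from 0.06 to 0.08 in CTCF-B KO cells and from 0.05 to 0.08 in WT cells. The gap between the top and the bottom decile of genes by GC content, relative to the WT mean, was 0.96, 0.45, 0.66 and 0.06 log2 in CTCF-A KO replicates 1 to 4. It lay between -0.10 and 0.03 in CTCF-B KO libraries and between -0.15 and 0.09 in WT libraries. Some results are also given below with this trend removed. Some are given with the first 3 CTCF-A KO libraries left out, so that replicate 4 stood alone. Not every result that these settings change in call, direction or size is marked. The part of GC content in the results was not tested beyond that. Of 12 astrocyte markers other than GFAP, 5 had a row. SLC1A3 (a glutamate transporter), GJA1 (connexin 43), FABP7, CLU and SOX9 were measured, whereas AQP4, ALDH1L1, SLC1A2, S100B, ALDOC, GLUL and ACSBG1 had no row in the table used here. The glial identity of the line could thus be checked against a part of these markers.

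GFAP lies on the minus strand of chromosome 17 (44903161 to 44916937, GRCh38, GENCODE 29). Its log2 expression was 12.69, 12.56, 12.54 and 12.51 in the 4 libraries of CTCF-A KO cells, 12.87, 12.77, 12.87 and 12.83 in the CTCF-B KO libraries, and 15.85, 15.74, 15.47 and 15.67 in the WT libraries. The 8 knockout libraries were all far below the 4 WT libraries, and the CTCF-A KO libraries were also all below the CTCF-B KO libraries. The change was -3.11 ± 0.07 log2 (SE; adjusted p = 6.62e-12) in CTCF-A KO against WT cells, which left 0.116 of the WT level. It was the lowest change of the 11128 genes tested. In CTCF-B KO against WT cells the change was -2.85 ± 0.07 log2 (adjusted p = 4.34e-11), which left 0.139 of the WT level and ranked 3 from the lowest. GFAP was slightly lower in CTCF-A KO than in CTCF-B KO cells, with a difference of -0.26 ± 0.07 log2 (adjusted p = 0.00442), or -0.54 once the trend with GC content and length was removed. The CTCF-A KO and CTCF-B KO comparisons share the WT libraries. In bulk RNA, fewer cells that make a transcript and less of it per cell cannot be told apart.

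**Figure D1:**
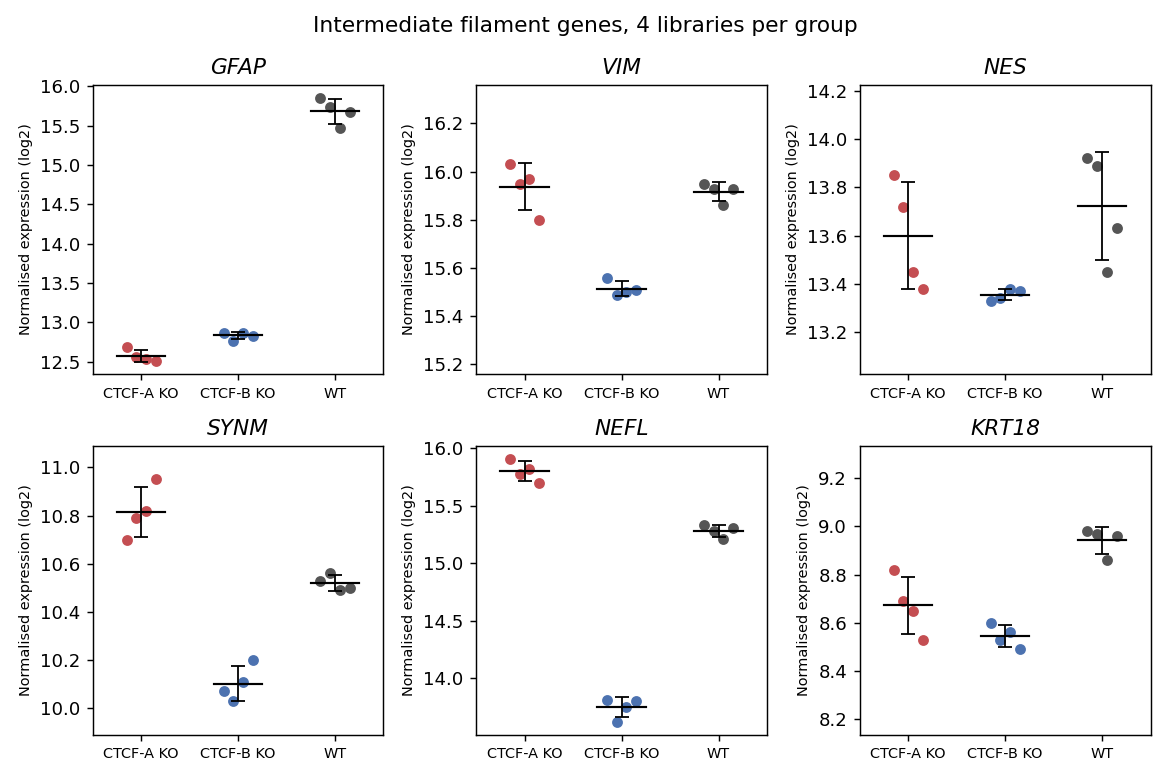
Normalised log2 expression of the 6 measured intermediate filament genes, with 1 point per library, the group mean as a long bar and the SD as a short-capped bar (n = 4 libraries each in CTCF-A KO, CTCF-B KO and WT cells). Each panel has its own vertical axis, which does not start at 0. GFAP is near 12.57 in CTCF-A KO cells and 12.83 in CTCF-B KO cells, against 15.68 in WT cells, while NEFL is highest in CTCF-A KO cells and lowest in CTCF-B KO cells.

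VIM encodes vimentin, the main filament protein of mesenchymal and glioma cells, and lies on the plus strand of chromosome 10 (17228259 to 17237593). Its log2 expression was 16.03, 15.95, 15.97 and 15.80 in CTCF-A KO libraries, 15.56, 15.49, 15.50 and 15.51 in CTCF-B KO libraries, and 15.95, 15.93, 15.86 and 15.93 in WT libraries. CTCF-A KO and WT libraries overlapped, and every CTCF-B KO library was below both. The difference between CTCF-A KO and WT cells was 0.02 ± 0.04 log2 (95% interval -0.07 to 0.12, adjusted p = 0.696). Its direction is not settled: it was -0.14 log2 after quantile normalisation (adjusted p = 1.31e-04) and -0.12 with CTCF-A KO replicate 4 alone (adjusted p = 0.0244). VIM fell by 0.40 ± 0.04 log2 in CTCF-B KO cells (adjusted p = 1.23e-05), to 0.757 of the WT level, and fell by 0.23 after quantile normalisation. It was 0.42 ± 0.04 log2 higher in CTCF-A KO than in CTCF-B KO cells (adjusted p = 3.07e-06), or 0.09 after quantile normalisation.

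NES encodes nestin, a large filament protein of neural stem and progenitor cells that polymerises with vimentin, and lies on the minus strand of chromosome 1 (156668763 to 156677397). Its log2 expression was 13.85, 13.72, 13.45 and 13.38 in CTCF-A KO libraries, 13.33, 13.34, 13.38 and 13.37 in CTCF-B KO libraries, and 13.92, 13.89, 13.45 and 13.63 in WT libraries. CTCF-A KO and WT libraries spread widely and overlapped, and the CTCF-B KO libraries were tightly grouped just below both. The difference from WT cells was -0.12 ± 0.11 log2 in CTCF-A KO cells (95% interval -0.36 to 0.12, adjusted p = 0.343). It passed the test once the trend with GC content and length was removed (-0.29 log2, adjusted p = 0.00979) and with CTCF-A KO replicate 4 alone (-0.34 log2, adjusted p = 0.0429). NES fell by 0.37 ± 0.11 log2 in CTCF-B KO cells (adjusted p = 0.0187). That call was lost without WT replicate 1 (-0.30 log2, adjusted p = 0.0629), without WT replicate 2 (-0.31 log2, adjusted p = 0.0617) and after quantile normalisation (-0.24 log2, adjusted p = 0.0678), and the change was -0.24 log2 with the trend removed, where it still passed (adjusted p = 0.0307). NES in CTCF-A KO minus CTCF-B KO cells was 0.24 ± 0.11 log2 (adjusted p = 0.0694), with the lowest CTCF-A KO and the highest CTCF-B KO library both at 13.38, and the sign turned with the trend removed (-0.05). It passed without CTCF-A KO replicate 4 (0.31, adjusted p = 0.0133), without CTCF-A KO replicate 3 (0.29, adjusted p = 0.0498), without WT replicate 3 (0.24, adjusted p = 0.0424), with library medians set equal (0.31, adjusted p = 0.0393) and when the 8 libraries compared were fitted alone (0.24, adjusted p = 0.0478). NES has the highest GC content of the 6 genes (59.3%). In WT cells its lowest value was in replicate 3, which also had the lowest GC gap, and the part of that in the result was not tested.

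SYNM encodes synemin, which links vimentin and GFAP filaments to the membrane and the actin cytoskeleton, and lies on the plus strand of chromosome 15 (99098217 to 99135593). Its log2 expression was 10.70, 10.79, 10.82 and 10.95 in CTCF-A KO libraries, 10.07, 10.03, 10.11 and 10.20 in CTCF-B KO libraries, and 10.53, 10.56, 10.49 and 10.50 in WT libraries. The 3 groups did not overlap, with CTCF-A KO cells highest and CTCF-B KO cells lowest. SYNM rose by 0.30 ± 0.05 log2 in CTCF-A KO cells (adjusted p = 4.98e-04) and fell by 0.41 ± 0.05 log2 in CTCF-B KO cells (adjusted p = 6.68e-05). The direct difference was 0.71 ± 0.05 log2 in CTCF-A KO minus CTCF-B KO cells (adjusted p = 2.07e-07).

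The promoters of VIM, NES and SYNM are shown because these 3 genes encode partners of GFAP in mixed filaments and have a RefSeq entry that could be printed. They are the 250 bases before the RefSeq transcription start in GRCh38.p14. They are 3 of the 6 measured genes. VIM is chr10:17227991-17228240 on the plus strand, NES is chr1:156677408-156677657 on the minus strand and SYNM is chr15:99104830-99105079 on the plus strand. The RefSeq start of SYNM lies downstream of the gene start in GENCODE 29, so its window is inside the gene as annotated there. Each is written 5′ to 3′ along the gene, and capitals mark matches to the motifs described after them.
VIM: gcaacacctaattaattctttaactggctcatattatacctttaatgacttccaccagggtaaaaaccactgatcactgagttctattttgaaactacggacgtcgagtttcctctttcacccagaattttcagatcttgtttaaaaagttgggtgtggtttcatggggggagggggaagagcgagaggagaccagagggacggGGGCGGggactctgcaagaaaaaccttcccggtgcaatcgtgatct
NES: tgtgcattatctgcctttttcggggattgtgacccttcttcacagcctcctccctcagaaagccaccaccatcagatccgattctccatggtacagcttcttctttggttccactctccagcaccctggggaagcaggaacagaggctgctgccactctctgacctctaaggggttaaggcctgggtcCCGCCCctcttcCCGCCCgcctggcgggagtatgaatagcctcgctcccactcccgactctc
SYNM: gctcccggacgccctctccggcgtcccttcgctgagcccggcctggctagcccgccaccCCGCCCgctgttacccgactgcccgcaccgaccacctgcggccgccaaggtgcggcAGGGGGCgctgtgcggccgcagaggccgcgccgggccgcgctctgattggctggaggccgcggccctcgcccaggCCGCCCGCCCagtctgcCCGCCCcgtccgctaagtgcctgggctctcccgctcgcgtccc

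Both strands were searched for 6 motifs. The GC box of SP and KLF factors (GGGCGG, or CCGCCC on the other strand) had 1 match in VIM, 2 in NES and 4 in SYNM, where 1 pair overlaps. It was present in 42.6% of 35116 RefSeq promoters of the same length. The core of the CTCF motif (AGGGGGC) had 1 match, in SYNM, 135 to 129 bases before the start, and 13.3% of all promoters hold it. The letters of an AP-1 site (TGANTCA, in 6.57% of all promoters), a STAT site (TTCNNNGAA, in 6.57%), a TATA box (TATAAA, in 10.7%) and a full NFI site (in 0.0285%) were not found in these 3 windows. The SYNM window is the richest in GC (78.8%, with 34 CG dinucleotides). NES has 58.0% GC with 8 CG dinucleotides, and VIM 46.0% with 8.

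NEFL encodes the light chain on which neurofilaments are built, and lies on the minus strand of chromosome 8 (24950955 to 24957110). Its log2 expression was 15.91, 15.78, 15.82 and 15.70 in CTCF-A KO libraries, 13.81, 13.62, 13.75 and 13.80 in CTCF-B KO libraries, and 15.33, 15.28, 15.21 and 15.31 in WT libraries. Every CTCF-A KO library was above every WT library, and every CTCF-B KO library was more than 1 log2 unit below every WT library. NEFL rose by 0.52 ± 0.05 log2 in CTCF-A KO cells (adjusted p = 3.12e-06), which is 1.44 times the WT level. After quantile normalisation the rise was 0.17 log2 (adjusted p = 0.00436). NEFL fell by 1.54 ± 0.05 log2 in CTCF-B KO cells (adjusted p = 2.83e-10), to 0.345 of the WT level, and ranked 35 from the lowest of the genes tested. The direct difference of 2.06 ± 0.05 log2 (adjusted p = 1.50e-11), or 4.17-fold, ranked 11 from the highest in CTCF-A KO minus CTCF-B KO cells. Thus the gene with the second largest change among the 6 moved in opposite directions in the knockouts, while GFAP fell in both.

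Of 12 neuron markers 4 had a row, and SNAP25, SYT1, MAP2 and UCHL1 were measured. Their summed linear level was 21255 to 26280 in CTCF-A KO libraries, 24743 to 26344 in CTCF-B KO libraries and 21578 to 22421 in WT libraries. UCHL1 makes up most of this sum, with a WT mean of 14.36 log2. The WT means of MAP2, SYT1 and SNAP25 were 9.42, 7.81 and 5.53. In CTCF-A KO cells none of the 4 passed the limma test (1 at an unadjusted p under 0.05), although 2 rose and 1 fell with the GC and length trend removed. SYT1 (a synaptic vesicle protein) differed by 0.01 ± 0.11 log2 (adjusted p = 0.945), but by 0.32 with the trend removed and 0.35 with CTCF-A KO replicate 4 alone, where it passed the test (adjusted p = 1.64e-04 and 0.00675). MAP2 differed by 0.12 ± 0.10 (adjusted p = 0.315), but by 0.53 with the trend removed and 0.48 with replicate 4 alone, where it passed. In CTCF-B KO cells SYT1 rose by 0.71 ± 0.11 log2 (adjusted p = 2.15e-04), SNAP25 by 0.43 ± 0.09 (adjusted p = 0.00148) and UCHL1 by 0.23 ± 0.06 (adjusted p = 0.00914). MAP2, which binds dendritic microtubules, fell by 0.27 ± 0.10 (adjusted p = 0.0419). NEFL was therefore lower in the cells in which 3 of these 4 markers were higher, where 18.9% of all genes were higher.

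KRT18 encodes keratin 18, whose usual partner is keratin 8, and lies on the plus strand of chromosome 12 (52948871 to 52952901), where its annotation overlaps KRT8 on the opposite strand. Its log2 expression was 8.82, 8.69, 8.65 and 8.53 in CTCF-A KO libraries, 8.60, 8.53, 8.56 and 8.49 in CTCF-B KO libraries, and 8.98, 8.97, 8.86 and 8.96 in WT libraries. Both knockouts were below WT cells in all libraries and overlapped each other. KRT18 fell by 0.27 ± 0.06 log2 in CTCF-A KO cells (adjusted p = 0.00207), a call that quantile normalisation ended (-0.17 log2, adjusted p = 0.0805) and that grew with the trend removed (-0.47) or with CTCF-A KO replicate 4 alone (-0.41). It fell by 0.40 ± 0.06 log2 in CTCF-B KO cells (adjusted p = 2.07e-04). The difference of CTCF-A KO minus CTCF-B KO cells, 0.13 ± 0.06 log2 (95% interval -0.00 to 0.26), did not pass the test (adjusted p = 0.0805), and its sign turned with the trend removed (-0.05) or with CTCF-A KO replicate 4 alone (-0.02). It passed without CTCF-A KO replicate 4 (0.18, adjusted p = 0.00868), after quantile normalisation (0.22, adjusted p = 0.0304) and with library medians set equal (0.19, adjusted p = 0.0371). GENCODE 29 lists 67 pseudogenes named after KRT18, so reads may have been split between copies, and the strand setting of the counting is not stated. Both make the KRT18 values uncertain. Of 8 epithelial markers, none had a row in the table used here.

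Counted together, 4 of 6 members passed the test in CTCF-A KO against WT cells, where 62.9% of all genes tested did. Of these 4, 2 were higher (31.8% of all genes) and 2 lower (31.1%). In CTCF-B KO against WT cells 6 of 6 passed, against 39.4% of all genes, and all 6 were lower, against 20.6% of all genes lower and 18.9% higher. In CTCF-A KO against CTCF-B KO cells 4 of 6 passed, against 66.0% of all genes, with 3 higher (33.4%) and 1 lower (32.6%). A share of 4 in 6 is near the background in both comparisons that use CTCF-A KO cells. The groups did not overlap for 4 members in CTCF-A KO against WT cells (47.7% of all genes), 6 in CTCF-B KO against WT cells (53.6%) and 5 between the knockouts (53.5%). A change past the test and of at least 2-fold was found for GFAP in CTCF-A KO cells, against 2.23% of all genes, and for GFAP and NEFL in CTCF-B KO cells, against 1.42%. Between the knockouts it was found for NEFL, against 3.26% of all genes. The median change of the 6 members was -0.05 log2 in CTCF-A KO against WT cells and -0.41 in CTCF-B KO against WT cells, and 0.33 in CTCF-A KO minus CTCF-B KO cells, where the median of all genes lay between -0.01 and 0.00.

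Because the filament proteins build mixed polymers, each partner was also set against VIM inside the same library, which removes any common scaling. GFAP minus VIM was -3.37 ± 0.06 log2 in CTCF-A KO cells, -2.68 ± 0.04 in CTCF-B KO cells and -0.24 ± 0.12 in WT cells (SD, n = 4 each). These 3 groups did not overlap. The difference from WT cells was -3.13 log2 in CTCF-A KO cells and -2.44 in CTCF-B KO cells, each with p = 0.0286 in a two-sided exact permutation test, the smallest p that 4 against 4 libraries allow. Adjusted over the 9 such tests made, it was 0.0643 in the exact permutation test, which does not pass 0.05. Whether the smallest p passes after this adjustment depends on the other tests and not on the size of the difference. The adjusted value therefore decides nothing about GFAP minus VIM. NES minus VIM was -2.34 ± 0.16 log2 in CTCF-A KO cells, -2.16 ± 0.05 in CTCF-B KO cells and -2.20 ± 0.19 in WT cells (SD, n = 4 each), and the groups overlapped. SYNM minus VIM was -5.12 ± 0.20 log2 in CTCF-A KO cells, -5.41 ± 0.08 in CTCF-B KO cells and -5.40 ± 0.03 in WT cells (SD, n = 4 each). For SYNM minus VIM the difference was 0.28 log2 between CTCF-A KO and WT cells (exact permutation p = 0.0286, adjusted 0.0643) and -0.01 between CTCF-B KO and WT cells (exact permutation p = 0.800). In CTCF-B KO cells VIM, NES and SYNM changed by -0.40, -0.37 and -0.41 log2 relative to WT cells, with 95% intervals that overlap. KRT18, which was not set against VIM, changed by -0.40. With the GC and length trend removed, VIM changed by -0.41, NES by -0.24 and SYNM by -0.32. Whether these amounts are alike was not tested.

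Per kilobase of the principal transcript, linear levels of the 6 genes summed to 47209 ± 3108 in CTCF-A KO libraries, 28719 ± 654 in CTCF-B KO libraries and 49818 ± 2296 in WT libraries (SD, n = 4 each). VIM made up 62.5%, 76.5% and 58.3% of that sum in CTCF-A KO, CTCF-B KO and WT cells. NEFL made up 29.7%, 11.7% and 19.6% in the same 3 groups. GFAP accounted for 1.98% in CTCF-A KO cells and 3.89% in CTCF-B KO cells, against 16.2% in WT cells. With a second set of annotated transcripts, in which that of GFAP is shorter (3135 in place of 6538 bases), GFAP had 3.70%, 7.02% and 26.7% in CTCF-A KO, CTCF-B KO and WT cells. NES held 4.76%, 6.58% and 4.91% with the principal transcripts, and KRT18 and SYNM together stayed under 2% in each group. The rank of GFAP depended on the transcript used. With the principal transcripts it stood below NES in both knockouts and between NEFL and NES in WT cells. With the second set it stood below NES in CTCF-A KO cells (4.27% for NES), above NES in CTCF-B KO cells (5.69% for NES) and above NEFL in WT cells (15.5% for NEFL). The sums of CTCF-A KO and WT libraries overlapped, and the CTCF-B KO libraries lay below both.

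**Figure D2:**
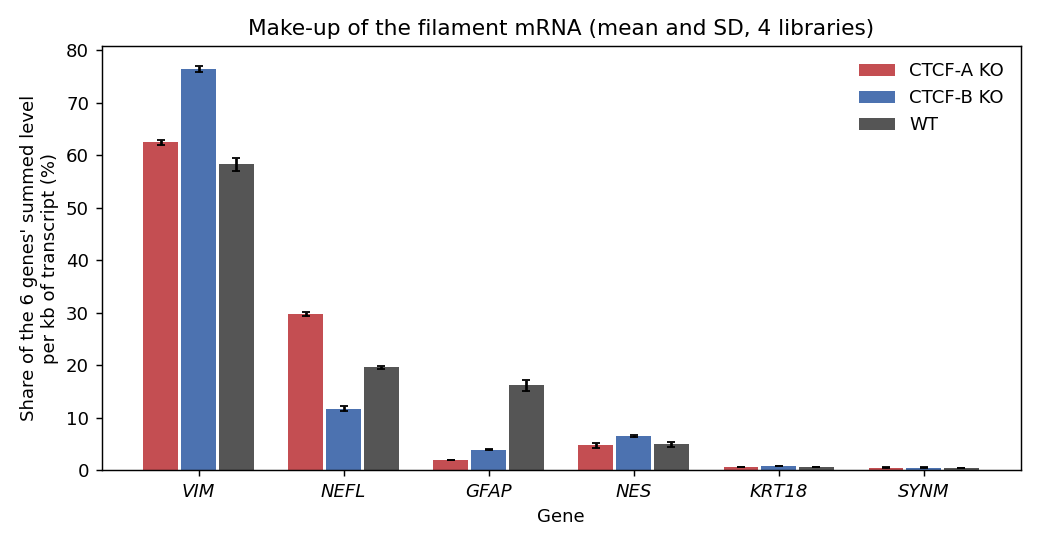
Share of each gene in the summed level per kilobase of transcript of the 6 measured filament genes, as mean and SD over 4 libraries in CTCF-A KO, CTCF-B KO and WT cells. GFAP falls to 1.98% in CTCF-A KO cells and 3.89% in CTCF-B KO cells, against 16.2% in WT cells, and NEFL holds 29.7%, 11.7% and 19.6%.

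The other intermediate filament genes were lamins of the nuclear envelope, other keratins and minor members. Of 31 listed, 10 had a row. In CTCF-A KO cells 6 rose and 3 fell, with a median of 0.30 log2, where 31.8% of all genes were higher and 31.1% lower. In CTCF-B KO cells 1 rose and 6 fell, with a median of -0.33, where 18.9% of all genes were higher and 20.6% lower. Among them KRT15, a basal keratin, was 9.33 ± 0.18 log2 in CTCF-A KO cells and 6.97 ± 0.08 in CTCF-B KO cells, against 7.74 ± 0.12 in WT cells (SD, n = 4 each). It rose by 1.59 ± 0.09 in CTCF-A KO cells (adjusted p = 1.79e-08) and fell by 0.77 ± 0.09 in CTCF-B KO cells (adjusted p = 1.66e-05). LMNA, which encodes lamins A and C, likewise rose by 0.43 ± 0.05 in CTCF-A KO cells and fell by 0.35 ± 0.05 in CTCF-B KO cells. KRT80 fell in both, with changes of -0.85 ± 0.05 in CTCF-A KO cells and -1.19 ± 0.05 in CTCF-B KO cells. LMNB1 (lamin B1) also fell in both, with -0.13 ± 0.04 in CTCF-A KO cells and -0.31 ± 0.04 in CTCF-B KO cells. IFFO1 rose by 0.42 ± 0.05 in CTCF-A KO cells and by 0.25 ± 0.05 in CTCF-B KO cells. KRT10 rose by 0.80 ± 0.07 in CTCF-A KO cells and differed by 0.14 ± 0.07 in CTCF-B KO cells (adjusted p = 0.128, or 0.0329 with the GC and length trend removed). With that trend removed the changes in CTCF-A KO cells were 0.24 for LMNA, 0.24 for IFFO1 and -0.24 for LMNB1, and with replicate 4 alone LMNA changed by 0.25. LMNB1 did not pass there with replicate 4 alone (-0.11, adjusted p = 0.0728). Between the knockouts 8 of these 10 genes were higher in CTCF-A KO than in CTCF-B KO cells and none was lower (limma; 0 also at an unadjusted p under 0.05), where 33.4% of all genes were higher. Removing the trend with GC content and length left 5 of the 10 higher and 0 lower. KRT15 and KRT10 lie within 5 Mb of GFAP, where 107 of 145 measured genes passed the test as higher in CTCF-A KO cells, against 31.8% of all genes.

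**Figure D3:**
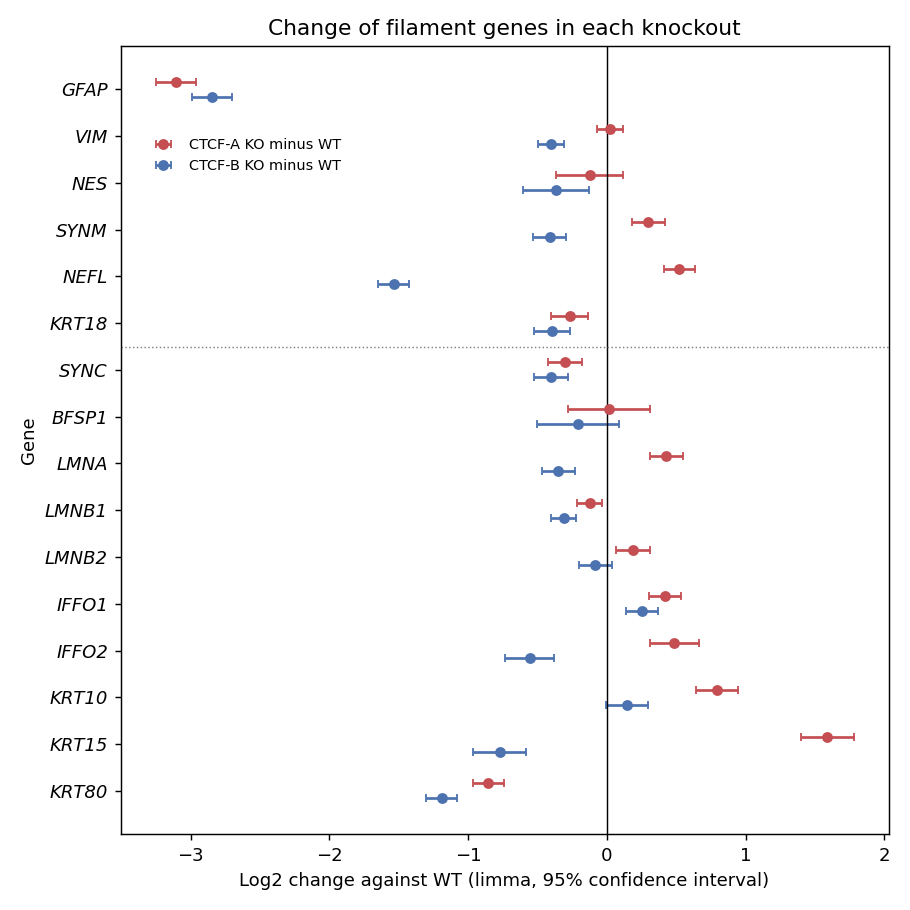
Log2 change of the 6 measured intermediate filament genes (above the dotted line) and of 10 other intermediate filament genes (below it) in CTCF-A KO minus WT cells and in CTCF-B KO minus WT cells, with 95% confidence intervals of the limma fit. GFAP is near -3 in both, whereas NEFL (0.52 and -1.54), SYNM (0.30 and -0.41) and KRT15 (1.59 and -0.77) lie on opposite sides of 0.

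Linkers and plakins anchor filaments to each other, to junctions and to the rest of the cytoskeleton. Of 8 measured (15 listed), 2 rose and 4 fell in CTCF-A KO cells, where 31.8% of all genes were higher and 31.1% lower. In CTCF-B KO cells 2 rose and 3 fell, where 18.9% of all genes were higher and 20.6% lower. With the GC and length trend removed, 1 rose and 6 fell in CTCF-A KO cells, and 4 rose and 2 fell in CTCF-B KO cells. With CTCF-A KO replicate 4 alone, 2 rose and 1 fell. PKP2, a desmosomal plaque protein, fell by 0.91 ± 0.11 log2 in CTCF-A KO cells and fell by 1.16 ± 0.11 in CTCF-B KO cells. With CTCF-A KO replicate 4 alone, PKP2 changed by -0.59 log2. MACF1, a spectraplakin, fell by 0.72 ± 0.15 in CTCF-A KO cells and differed by -0.01 ± 0.15 in CTCF-B KO cells. MACF1 changed by -0.42 in CTCF-A KO cells and by 0.15 in CTCF-B KO cells with the trend removed, and did not pass with CTCF-A KO replicate 4 alone (-0.14, adjusted p = 0.131). NDEL1, which binds neurofilaments and dynein, rose by 0.12 ± 0.05 in CTCF-A KO cells and by 0.44 ± 0.05 in CTCF-B KO cells. The rise of NDEL1 in CTCF-A KO cells was no longer past the test with the GC and length trend removed (0.07 log2). PLEC, which encodes plectin, the main cross-linker of vimentin, was 0.26 ± 0.05 in CTCF-A KO cells and -0.18 ± 0.05 in CTCF-B KO cells. Both signs of PLEC turned once the trend was removed (-0.16 in CTCF-A KO cells and 0.29 in CTCF-B KO cells), so no direction is given for it. With CTCF-A KO replicate 4 alone, PLEC differed by 0.17.

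Of 20 measured kinases, phosphatases and turnover factors of filaments (24 listed), 6 rose and 8 fell in CTCF-A KO cells. Over all genes 31.8% were higher and 31.1% lower there. In CTCF-B KO cells 3 rose and 7 fell, where 18.9% of all genes were higher and 20.6% lower. The rises in CTCF-A KO cells numbered 3 with replicate 4 alone, and those in CTCF-B KO cells numbered 5 with the GC and length trend removed. TRIM2, a ubiquitin ligase that binds neurofilament light chain in mice, fell by 0.96 ± 0.17 log2 in CTCF-A KO cells and fell by 1.09 ± 0.17 in CTCF-B KO cells. CDK1, which phosphorylates vimentin and nestin in mitosis, fell by 0.58 ± 0.08 in CTCF-A KO cells and differed by -0.13 ± 0.08 in CTCF-B KO cells (adjusted p = 0.245). In CTCF-A KO cells the change of TRIM2 was -0.54 with the GC and length trend removed and -0.31 with replicate 4 alone (adjusted p = 0.0259), and that of CDK1 was -0.37 with replicate 4 alone. With the trend removed, CDK1 passed in CTCF-B KO cells too (-0.22). CAPN2, a calpain that cleaves neurofilaments and GFAP, rose by 0.29 ± 0.04 in CTCF-A KO cells and fell by 0.16 ± 0.04 in CTCF-B KO cells.

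Of 8 measured chaperones of filaments (9 listed), 5 rose and 1 fell in CTCF-A KO cells. Over all genes 31.8% were higher and 31.1% lower there. In CTCF-B KO cells 3 rose and none fell (limma, and 0 also at an unadjusted p under 0.05). There 18.9% of all genes were higher and 20.6% lower. With CTCF-A KO replicate 4 alone, 3 rose and 3 fell. HSPB8, a small heat shock protein, rose by 1.05 ± 0.06 log2 in CTCF-A KO cells and by 0.62 ± 0.06 in CTCF-B KO cells. Its partner BAG3 fell by 0.68 ± 0.05 in CTCF-A KO cells and rose by 0.38 ± 0.05 in CTCF-B KO cells. CRYAB, the alpha-B crystallin that accompanies GFAP in Rosenthal fibres, differed by -0.27 ± 0.13 (adjusted p = 0.0807) in CTCF-A KO cells and by -0.19 ± 0.13 (adjusted p = 0.253) in CTCF-B KO cells. In CTCF-A KO cells CRYAB passed the test with the trend removed (-0.45, adjusted p = 0.00227) and with replicate 4 alone (-0.46, adjusted p = 0.0320).

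A mixed list of possible regulators of the GFAP promoter also held a ligand (LIF), receptors (IL6ST, BMPR1A, NOTCH1, NOTCH2) and kinases (JAK1, JAK2). Action of the listed genes on the promoter was not tested. Of 31 measured (35 listed), 9 rose and 10 fell in CTCF-A KO cells, and 4 rose and 15 fell in CTCF-B KO cells. Over all genes 31.8% were higher and 31.1% lower in CTCF-A KO cells, so the counts there are near the background in the values as deposited. In CTCF-B KO cells 18.9% of all genes were higher and 20.6% lower. With the GC and length trend removed, the rises among these listed genes numbered 5 in CTCF-A KO cells and 8 in CTCF-B KO cells. More of them fell than rose in CTCF-A KO cells with the trend removed. SOX2, a progenitor transcription factor, fell by 0.31 ± 0.04 log2 in CTCF-A KO cells and fell by 0.51 ± 0.04 in CTCF-B KO cells. SOX9 (a glial transcription factor) differed by 0.06 ± 0.04 in CTCF-A KO cells (adjusted p = 0.206) and fell by 0.41 ± 0.04 in CTCF-B KO cells. The sign of SOX9 in CTCF-A KO cells turned with the trend removed (-0.04). STAT3, through which cytokines switch GFAP on, rose by 0.25 ± 0.04 in CTCF-A KO cells and fell by 0.22 ± 0.04 in CTCF-B KO cells. NOTCH1 differed by 0.04 ± 0.05 in CTCF-A KO cells (adjusted p = 0.547, but -0.23 and past the test with the trend removed) and fell by 0.77 ± 0.05 in CTCF-B KO cells. ATF3, a stress-induced factor, differed by -0.00 ± 0.08 (adjusted p = 0.975) in CTCF-A KO cells and rose by 1.05 ± 0.08 in CTCF-B KO cells. SNAI2 rose by 0.55 ± 0.05 in CTCF-A KO cells and fell by 0.24 ± 0.05 in CTCF-B KO cells.

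Of 24 measured actin and tubulin genes (27 listed), 10 rose and 1 fell in CTCF-A KO cells, with a median of 0.13 log2, where 31.8% of all genes were higher and 31.1% lower. In CTCF-B KO cells 2 rose and 16 fell, with a median of -0.26, where 18.9% of all genes were higher and 20.6% lower. Between the knockouts 18 were higher in CTCF-A KO than in CTCF-B KO cells and 0 lower (limma; 0 also at an unadjusted p under 0.05), where 33.4% of all genes were higher. Removing the trend with GC content and length left 16 higher and made 2 lower. The falls in CTCF-A KO cells numbered 9 with the GC and length trend removed. Apart from TAGLN and TAGLN2 these were all tubulin genes, such as TUBB4B (-0.28) and TUBA1B (-0.25). The genes named next are not among them. TPM1 (tropomyosin) rose by 0.54 ± 0.04 in CTCF-A KO cells and fell by 0.76 ± 0.04 in CTCF-B KO cells. ACTG1 (cytoplasmic actin, whose reads may be shared with near-identical copies) rose by 0.41 ± 0.05 in CTCF-A KO cells and fell by 0.55 ± 0.05 in CTCF-B KO cells. The rise of ACTG1 in CTCF-A KO cells was 0.21 with the trend removed and 0.25 with replicate 4 alone. MAP1A, a microtubule-binding protein, rose by 1.66 ± 0.07 in CTCF-A KO cells and by 0.29 ± 0.07 in CTCF-B KO cells. ACTN1 (alpha-actinin 1) rose by 0.51 ± 0.05 in CTCF-A KO cells and differed by -0.11 ± 0.05 in CTCF-B KO cells (adjusted p = 0.0935).

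Astrocyte markers moved beside GFAP in part. Of the 5 measured, none rose and 3 fell in CTCF-A KO cells, where 31.8% of all genes were higher and 31.1% lower (limma). In CTCF-B KO cells none rose and 3 fell, where 18.9% of all genes were higher and 20.6% lower. At an unadjusted p under 0.05 still 0 rose in either, and 4 fell in CTCF-B KO cells. With the GC and length trend removed, CLU also passed the test as lower in CTCF-A KO cells (-0.17 log2) and CTCF-B KO cells (-0.16). FABP7, the brain fatty acid binding protein of radial glia, fell by 1.47 ± 0.08 log2 in CTCF-A KO cells and fell by 0.80 ± 0.08 in CTCF-B KO cells. SLC1A3 fell by 0.52 ± 0.08 in CTCF-A KO cells (changes of -0.34 with the GC and length trend removed and -0.30 with replicate 4 alone) and fell by 1.31 ± 0.08 in CTCF-B KO cells. GJA1 fell by 1.15 ± 0.08 in CTCF-A KO cells and differed by 0.05 ± 0.08 in CTCF-B KO cells (adjusted p = 0.668). The summed linear level of the 5 markers was 10891 to 11269 in CTCF-A KO libraries and 11211 to 11790 in CTCF-B KO libraries, against 14239 to 14693 in WT libraries. Their part in the change of GFAP was not tested. Of the other marker lists, CNP (1 of 8 oligodendrocyte markers with a row) rose by 0.21 ± 0.06 in CTCF-A KO cells (0.09 with the trend removed, and 0.07 with replicate 4 alone, where it did not pass) and differed by -0.10 ± 0.06 in CTCF-B KO cells (adjusted p = 0.167). KDR (1 of 9 microglia and endothelial markers with a row) fell by 1.18 ± 0.06 in CTCF-A KO cells and fell by 0.84 ± 0.06 in CTCF-B KO cells.

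The genes around each member were compared with it, since CTCF borders act on stretches of chromosome. The 145 measured neighbours of GFAP within 5 Mb had a median change of 0.34 log2 in CTCF-A KO cells and 0.06 in CTCF-B KO cells. None was as low as GFAP, which its rank among all genes nearly fixes. The lowest neighbour changed by -0.91 in CTCF-A KO cells and by -1.14 in CTCF-B KO cells. In CTCF-A KO cells 107 of the 145 passed the test as higher and 8 as lower, where 31.8% of all genes were higher and 31.1% lower. In CTCF-B KO cells 44 passed as higher and 17 as lower, where 18.9% of all genes were higher and 20.6% lower. These counts were made without removing the GC and length trend. KRT15, KRT10 and STAT3 are among the 145, and KRT15 had the highest change of them in CTCF-A KO cells (1.59). NEFL had 49 neighbours, whose medians were 0.07 in CTCF-A KO cells and 0.12 in CTCF-B KO cells. Of these, 2 of 49 were as high as NEFL in CTCF-A KO cells, and 0 of 49 were as low in CTCF-B KO cells. The latter is nearly fixed by the rank of NEFL among all genes there (35 from the lowest). SYNM did not stand apart in CTCF-A KO cells, where its 0.30 matched the median of its 16 neighbours (0.30), while 2 of 16 were as low as SYNM in CTCF-B KO cells (median -0.04). The 26 neighbours of VIM had medians of -0.28 and 0.08 in CTCF-A KO and CTCF-B KO cells, and those of NES (127 genes) had 0.25 and -0.17. For KRT18, 14 of 160 neighbours were as low in CTCF-A KO cells and 3 of 160 in CTCF-B KO cells. With the GC and length trend removed, CTCF-A KO medians were 0.24 around GFAP, -0.03 around NEFL, -0.15 around VIM and 0.14 around NES. These medians are descriptions without a test, and the positions of the CTCF-A and CTCF-B sites are not given in the sources used here.

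**Figure D4:**
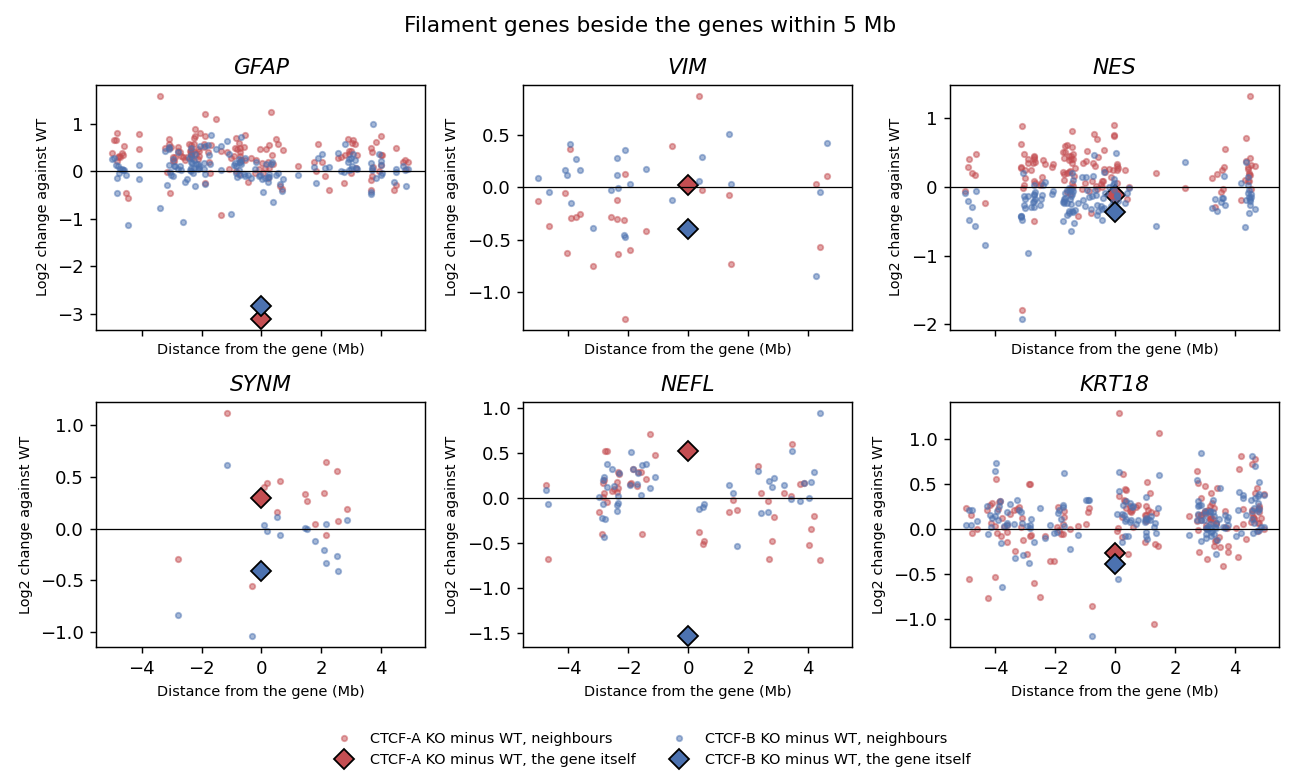
Log2 change against WT cells of each filament gene (diamond) and of the measured genes within 5 Mb (points), by distance from the gene in megabases, in CTCF-A KO cells (red) and CTCF-B KO cells (blue). GFAP lies below all of its 145 neighbours in both knockouts, and NEFL lies below its 49 neighbours in CTCF-B KO cells. The low ranks of GFAP and NEFL among all genes nearly fix these places. SYNM in CTCF-A KO cells lies at the median of its 16 neighbours.

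Among 540 genes whose group means span at least 1 log2 unit, those with the pattern most like GFAP over the 12 libraries were ADAMTS16 (Pearson r = 0.996), TNFSF4 (0.991), FADS2 (0.990) and CADM1 (0.988). ADAMTS16, an extracellular protease, was 8.72 log2 in CTCF-A KO cells and 8.81 in CTCF-B KO cells, against 10.46 in WT cells. CADM1, a cell adhesion molecule, was 9.45 in CTCF-A KO cells and 9.89 in CTCF-B KO cells, against 11.69 in WT cells. The genes most like NEFL were FBLN1 (r = 0.999), COL18A1, SEPTIN4 and IGFBP7 (each 0.997). FBLN1, which encodes the matrix protein fibulin 1, was 11.29 log2 in CTCF-A KO cells and 8.73 in CTCF-B KO cells, against 10.64 in WT cells. COL18A1, a basement membrane collagen, was 12.05 in CTCF-A KO cells and 10.11 in CTCF-B KO cells, against 11.61 in WT cells. These correlations describe 12 libraries in 3 groups, so they follow the group means, and the 12 points share libraries and normalisation.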

How the data were processed

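Total RNA of 12 libraries (4 each of CTCF-A KO, CTCF-B KO and WT cells) was sequenced. Per the submitters' processing notes, Trimmomatic 0.33, featureCounts and DESeq2 were used with the genome build GRCh38.p7. The aligner, annotation, strand setting, gene filter and transformation are not given in the sources used here. The authors deposited normalised values on a log2 scale (1.34 to 17.97), so the depth of each library is unknown and intervals for counting error cannot be had. If the transformation shrinks low values, changes of weakly expressed genes are understated. The values were used as deposited, without a pseudocount. Genes at 10 or more on the linear scale in at least 4 of 12 libraries were kept (11128 of 11178). One limma 3.58.1 model (R 4.3.3) with a term per group and a trended variance was fitted to all 12 libraries and all genes. Two-sided p-values were adjusted by the Benjamini-Hochberg method (threshold 0.05). The fit was tested on simulated data. Differences within a library used exact permutation tests (scipy 1.17.1). NEFL minus NEFM and KRT8 minus KRT18, also planned, could not be computed.

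Besides the members, the text names up to 4 genes per list with the smallest adjusted p in either comparison with WT, LMNA, LMNB1, PLEC, STAT3, SOX9 and CRYAB, and the 4 genes most like GFAP and NEFL. The members and lists were chosen with earlier results of these data known. GC content, length and neighbours came from GENCODE 29, in which 11151 genes were found. Replicate numbers did not pair the samples: same-numbered libraries of different groups had correlations of deviations from -0.32 to 0.43. The alternatives were other filters, scalings, spread estimates, a pseudocount of 16, a replicate block, removal of the GC and length trend, and leaving out libraries.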

Additional observations from a re-analysis of the deposited data

Results flagged for a closer look

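KRT18 in WT replicate 3 was 8.86 log2, apart from the other WT libraries, which lay between 8.96 and 8.98. It was the 1 value marked by Dixon's test among the 18 groups of 4 libraries tested (6 genes in 3 groups), and chance marks about 1 in 20 such groups.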

How the results depend on the processing

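Of 18 member results (6 genes in 3 comparisons), 12 kept their call and direction under each alternative run, among them GFAP, SYNM and NEFL in all 3 comparisons. The change of GFAP ran from -3.26 to -3.02 log2 in CTCF-A KO against WT cells and from -2.92 to -2.72 in CTCF-B KO against WT cells. The number of members past the test ran from 4 to 6 in CTCF-A KO against WT cells, from 5 to 6 in CTCF-B KO against WT cells and from 4 to 6 between the knockouts. VIM in CTCF-A KO minus WT cells turned negative after quantile normalisation (-0.14), with the GC and length trend removed (-0.0046, with or without a replicate block), with CTCF-A KO replicate 4 alone (-0.12) and without CTCF-A KO replicate 1 (-0.011, the lowest of -0.011 to 0.066 when 1 library was left out). In CTCF-A KO minus CTCF-B KO cells, NES turned to -0.051 and KRT18 to -0.052 with the trend removed, with or without the block, and KRT18 to -0.016 with CTCF-A KO replicate 4 alone. Within a library, SYNM minus VIM in CTCF-B KO minus WT cells turned to 0.090 with the trend removed and ran from -0.044 to 0.015 when 1 library was left out. NES minus VIM in the same comparison ran from -0.036 (without WT replicate 3) to 0.091. The causes were not tested. Tests of 4 against 3 libraries cannot give a permutation p under 0.0571.

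All genes past the test numbered 7002 in CTCF-A KO against WT cells, and 4654 with CTCF-A KO replicate 4 alone. They numbered 4389 in CTCF-B KO against WT cells, and 6601 when the 8 libraries compared were fitted alone. Leaving out 1 library gave 6182 to 8210 and 3670 to 5824. The replicate block gave 7060 and 4414 and called NES higher in CTCF-A KO than in CTCF-B KO cells (adjusted p = 0.0268). In 8 of 24 cases a library correlated best with its own number in another group. Depth is unknown, so no limit for low genes can be given. How reads shared by KRT18 and its copies were counted is not known.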
